A study of Mus musculus with 9 samples.

Results

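The data described here are the transcript counts of VGAT+ neurons of the mouse ventral midbrain, taken in late gestation (E16.5, counted in days from conception) and just after birth (P0.5), and the comparison between these ages. Cells were members when they came from a plate of tdTomato-positive, GFP-negative cells and passed a filter of at least 2000 detected genes, at most 50000 counts and under 15% mitochondrial counts, which left 1460 cells on 7 plates of 2035 cells on 9 plates in the series. The animals behind all plates were VGAT-Cre:Ai14:Pitx3-GFP, where Cre driven from the gene of the vesicular GABA transporter turns on tdTomato for good in a cell and in its descendants, and GFP marks cells that express Pitx3. The E16.5 group had 4 plates with 190, 228, 303 and 305 cells kept, and the P0.5 group had 3 plates with 44, 219 and 171 cells kept. Cells that carried GFP as well went to other plates, the label marks a history of VGAT expression whatever the final place of a cell, and both ages carried the same alleles. The series used 14 brains of 6 litters at E16.5 and 13 brains of 6 litters at P0.5, and the labels tie no plate to an animal, so that p-values measure the spread between plates. Column names in the count table carry a pair of plate names, and on 4 of the 7 plates the later of the pair gives the other age. Ages here follow the earlier name, and no fit was made by the later one.

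GABAergic neurons are born from progenitors that use patterning genes, leave the cell cycle, migrate and extend axons under the direction of guidance receptors, and then build synapses. During maturation a neuron turns down RNA-binding proteins and transcription factors of early growth, exchanges growth-related tubulins and adhesion molecules for those of the mature axon, and builds the machinery that packs GABA into vesicles and takes it up again. Birth also brings a change in oxygen and in fuel supply, and glycolysis, mitochondrial respiration and the enzymes that remove peroxides are the routes by which a neuron meets these.

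Counts on a plate, summed over the kept cells, ranged from 1435919 to 5408710, and 3 counts on a plate corresponded to between 0.555 and 2.09 CPM, the library-scaled unit used for levels here. Gad1 and Gad2, which encode the enzymes that make GABA, were high on every plate, at 1162, 1222, 1110.2 and 963 CPM at E16.5 and 1017, 813 and 1202 CPM at P0.5 for Gad1. Pitx3 was at or under 0.383 CPM on each plate and Th, the rate-limiting enzyme of dopamine synthesis, at or under 6.22 CPM. Marker sums of endothelial, mural and meningeal, erythroid, and ependymal and choroid plexus cells were at or under 10.8 CPM on every plate. The astrocyte marker sum was 280 to 310 CPM at E16.5 and 276 to 950 CPM at P0.5, with the highest value on P0.5 replicate 2, and Gfap was at 0 on 6 of the 7 plates. Radial glia and progenitor markers summed to 143 to 182 CPM at E16.5 and 109 to 454 CPM at P0.5, oligodendrocyte lineage markers to 86.5 to 108 and 83.5 to 188 CPM, and microglial markers to 2.60 to 60.6 and 4.15 to 84.0 CPM. All 4 sums overlapped between the ages and were highest on P0.5 replicate 2. The kept cells held a median of 15608 to 22588 counts per plate at E16.5 and 7043 to 33272 counts at P0.5, ranges that overlapped. In sums over a plate, fewer cells of a type and less RNA per cell cannot be told apart.

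Between E16.5 and P0.5, 624 of 13639 tested genes passed an adjusted p of 0.05 in edgeR's quasi-likelihood test, which is 4.58% of them. Genes higher at P0.5 made up 2.84% of all genes tested and genes lower at P0.5 1.74%, and the median log2 fold change over all genes was 0.02. Most changes were modest, with a median size of 0.79 on the log2 scale among the genes that passed. At P0.5, 146 of them were over 1 log2 unit higher and 45 over 1 log2 unit lower. Of 35 gene lists, grouped by role, the list of hypoxia and glycolysis had the largest share of its members past the threshold, 12 of 24, all of them higher.

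**Figure D1:**
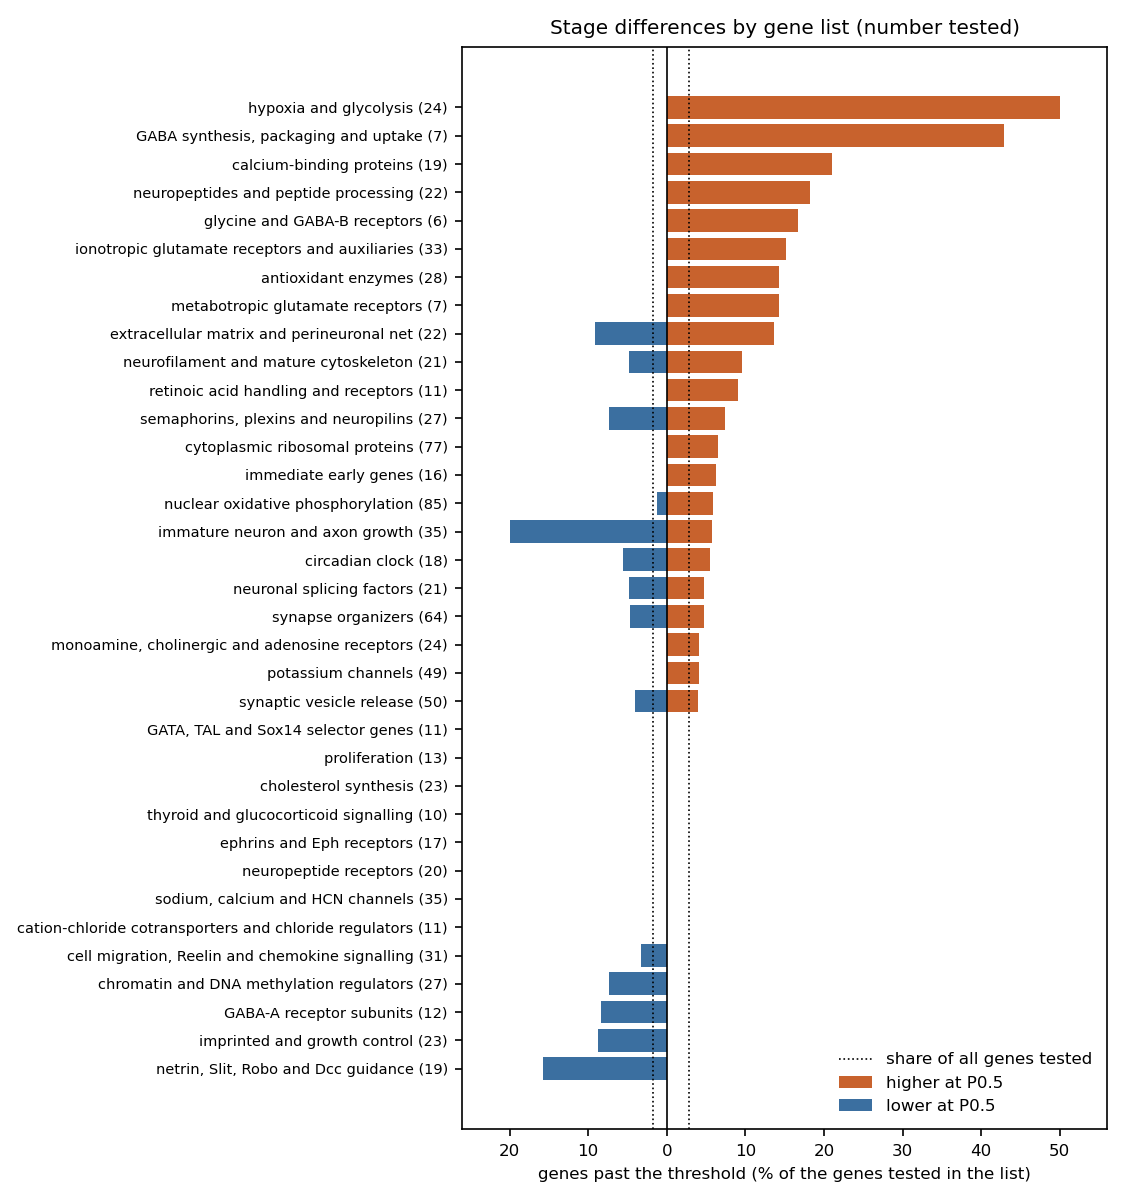
Share of the tested genes of each list (horizontal axis, percent) that passed the threshold as higher at P0.5 (orange, to the right) or lower at P0.5 (blue, to the left), from edgeR on 4 E16.5 and 3 P0.5 plates, with dotted lines at the shares of all genes tested, 2.84% and 1.74%. The bar of hypoxia and glycolysis reaches 50% on the higher side, while immature neuron and guidance genes extend to the lower side.

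The count of genes past the threshold leaned on single plates. Left out in turn, E16.5 replicates 1 to 4 left 265, 833, 92 and 130 genes past it and P0.5 replicates 1 to 3 left 770, 162 and 76, and 40 genes, 32 of them higher at P0.5, passed in each of the 7 fits. Of the 102 genes that the naming rule takes and that passed, 14 passed without each plate in turn. These were Sox11, Sncb, Vgf, Gpc6, Gpx3, Gpx4, Gstp1, Eno1, Atp5g1, Ezh2, Thy1, Tuba4a, Cox6b2 and Serinc2. The other 88 lost the threshold without at least 1 plate, most often without P0.5 replicate 3, where 85 were lost, and least often without E16.5 replicate 2, where 8 were lost. No log2 fold change of the 624 genes changed sign in those fits where it could be tested.

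The GABA machinery was measured first, since it defines the cells. Of 7 tested genes for GABA synthesis, packaging and uptake, 3 (42.9%, against 2.84% of all genes) were higher at P0.5 and none lower, with a median log2 fold change of 0.52. Leaving out 1 plate gave 1 to 2 higher, and the other settings gave 0 to 4. Slc32a1, which encodes the vesicular GABA transporter that drives the Cre, was at 214, 235, 171 and 159.6 CPM on the E16.5 plates and 270.3, 289 and 329 CPM on the P0.5 plates. No E16.5 plate reached a P0.5 plate, and the log2 fold change was 0.61 (SE 0.15, adjusted p = 0.0367). Slc32a1 passed in 2 of the 7 fits that left out a plate. Abat, which breaks GABA down, was higher by 0.52 on the log2 scale (adjusted p = 0.0416), but passed in none of the fits that left out a plate. The genes for synthesis itself did not pass, with log2 fold changes of -0.14 for Gad1 (adjusted p = 0.594) and -0.21 for Gad2 (adjusted p = 0.261).

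Receptors and chloride carriers of the same system were read next. None of 11 tested cation-chloride cotransporters and chloride regulators passed by edgeR, 3 did at an unadjusted p under 0.05, and 0 did by DESeq2. Slc12a5, which encodes the exporter KCC2 that lowers chloride in maturing neurons, was at 224, 303, 236 and 227 CPM and 302, 367 and 311 CPM (log2 fold change 0.40, adjusted p = 0.0976). Among 12 tested GABA-A receptor subunits the plates of 4 (33.3%) did not overlap between the ages, against 20.6% of all genes, and only Gabrb2 passed, lower at P0.5 (log2 fold change -0.90, adjusted p = 0.0417). Gabrb2 did not pass in exonic counts alone (-0.88, adjusted p = 0.106), and passed in 3 of the 7 fits that left out a plate. Of 6 tested glycine and GABA-B receptor genes 3 (50%) were without overlap, and Gabbr2, a subunit of the metabotropic GABA-B receptor, was higher by 0.53 (adjusted p = 0.0227).

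Glycolysis genes were higher at P0.5 where they changed. Of 24 tested members of the hypoxia and glycolysis list, 12 (50%) were higher at P0.5 and none lower, against 4.58% of all genes, 22 had a positive log2 fold change, and the median was 0.59 against 0.02 over all genes. The plates of the 2 ages did not overlap for 12 of the 24 members (50%), against 20.6% of all genes. Summed over the list, expression was between 2553 and 3391 CPM on the E16.5 plates and between 3894 and 4328 CPM on the P0.5 plates.

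The members are given in the order of the pathway. Slc2a3, the neuronal glucose transporter, was at 85.3, 94.3, 80.3 and 83.3 CPM at E16.5 and 112, 136 and 112 CPM at P0.5, a log2 fold change of 0.48 (adjusted p = 0.0395). Gpi1, which turns glucose 6-phosphate into fructose 6-phosphate, was at 161, 236, 188 and 137 CPM and then 295, 355 and 351 CPM (log2 fold change 0.89, adjusted p = 0.0158). Pfkl, a phosphofructokinase and so part of the committed step, was at 41.1, 51.0, 37.8 and 39.0 CPM and then 69.8, 74.3 and 62.8 CPM (log2 fold change 0.70, adjusted p = 0.0207). For these 3 genes every P0.5 plate lay above every E16.5 plate. Aldoa, an aldolase that splits the 6-carbon sugar, was at 265, 344, 232 and 205 CPM and then 415, 588 and 450.0 CPM (log2 fold change 0.89, adjusted p = 0.0189), and Tpi1, which interconverts the products of that cleavage, was at 166, 204, 173 and 145 CPM and then 247, 302 and 334 CPM (log2 fold change 0.78, adjusted p = 0.0139). Aldoc, the aldolase that astrocytes also use, was at 34.1, 72.0, 34.9 and 37.6 CPM and 70.5, 151 and 132 CPM, so that P0.5 replicate 1 lay just under E16.5 replicate 2 (log2 fold change 1.41, adjusted p = 0.0189).

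In the second stage of the pathway, which yields ATP, Pgk1 was at 65.9, 72.0, 85.3 and 70.5 CPM at E16.5 and 133, 84.5 and 128 CPM at P0.5, with P0.5 replicate 2 just under E16.5 replicate 3 (log2 fold change 0.65, adjusted p = 0.0373). Pgam1, a phosphoglycerate mutase, was at 5.72, 5.67, 4.79 and 4.40 CPM and then 11.0, 17.0 and 9.48 CPM, a log2 fold change of 1.25 (adjusted p = 0.0352). Eno1, an enolase, was at 79.1, 81.6, 66.5 and 45.4 CPM and then 185, 140.1 and 149 CPM, with all P0.5 plates above all E16.5 plates and a log2 fold change of 1.21 (SE 0.18, adjusted p = 0.00887). It was the only member of the list that passed without each of the 7 plates. Eno2, the neuronal enolase, was at 125, 159, 131 and 126 CPM and 153, 255 and 233 CPM and overlapped between the ages (log2 fold change 0.66, adjusted p = 0.0387). Ldha, which makes lactate from pyruvate, was at 117, 244, 179.9 and 143 CPM and 287, 273 and 311 CPM (log2 fold change 0.76, adjusted p = 0.047). Bnip3, a mitophagy receptor and a known target of hypoxia-inducible factors, was at 50.8, 60.5, 51.8 and 60.1 CPM and 89.7, 78.8 and 82.3 CPM (log2 fold change 0.58, adjusted p = 0.0231).

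Members that did not pass included the regulators themselves. Hif1a, the oxygen-sensitive subunit of the hypoxia-inducible factor, had a log2 fold change of -0.14 (adjusted p = 0.552), Egln1, the hydroxylase that marks it for breakdown, -0.23 (adjusted p = 0.27), and Vegfa, a secreted target of it, 0.39 (adjusted p = 0.185). Pkm, the pyruvate kinase, had a log2 fold change of 0.41 (adjusted p = 0.125) and Ldhb, the lactate dehydrogenase subunit that favours pyruvate, 0.40 (adjusted p = 0.065). Gapdh was read at only 6.22, 2.83, 4.60 and 3.80 CPM and 10.3, 10.2 and 6.52 CPM. Gapdh, Pgam1 and Eno1 have near-identical copies elsewhere in the genome among which reads may have been split, so their levels are uncertain, and Aldoa overlaps Fam57b on the other strand.

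The count within the list moved with the plates used, from 1 gene without E16.5 replicate 3 or without P0.5 replicate 3 to 13 without E16.5 replicate 2, with 5 and 3 genes without E16.5 replicates 1 and 4 and 11 and 4 without P0.5 replicates 1 and 2. The median did not follow it and stayed between 0.53 and 0.62. Over the other settings tried for hypoxia and glycolysis, 0 to 13 genes were higher and none lower, with 0 of 20 tested when each plate was reduced to an equal number of cells, and the median was between 0.51 and 0.64. Without the cells in which 3 or more of 9 glial genes were detected, a fit added after seeing the data, the same 12 genes passed and the median was 0.61. On the plates of VGAT+Pitx3+ cells, with 1 plate at each age and hence no test, 18 of the 24 genes had a positive log2 ratio and the median was 0.33.

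**Figure D2:**
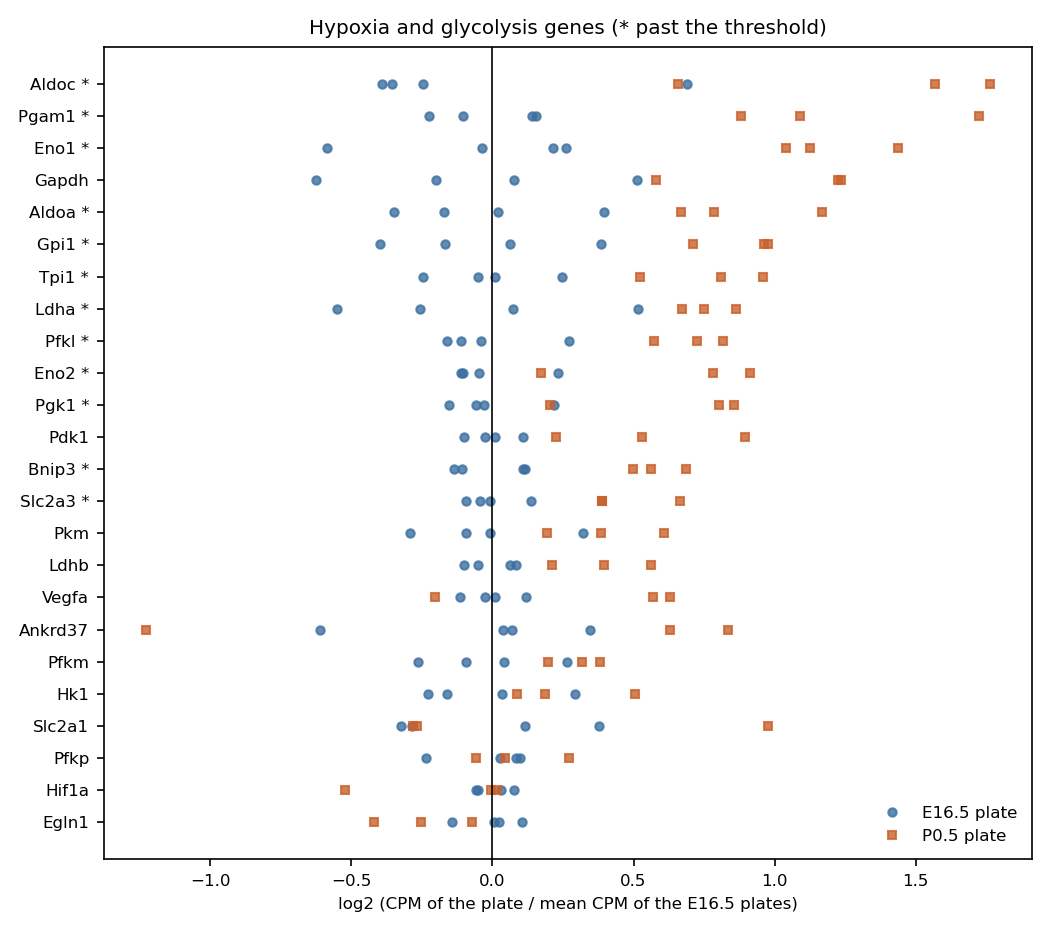
Expression of the 24 tested hypoxia and glycolysis genes on each plate, as the log2 ratio of its CPM to the mean of the 4 E16.5 plates, with blue circles for E16.5, orange squares for P0.5 and an asterisk at genes past the threshold in edgeR. The 3 P0.5 plates of Eno1, Tpi1 and Gpi1 lie to the right of all E16.5 plates, whereas Hif1a and Egln1 spread around the E16.5 mean.

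Several members of the list are known targets of hypoxia-inducible factors. Promoters were read for the core of the element that those factors bind, ACGTG, on both strands (CACGT on the strand printed). The stretch read was the 300 bases from 250 before to 50 after each start given by RefSeq for GRCm38.p6. The word CACGTG, an E-box that other factors bind, holds both readings and so counts as an overlapping pair. At least 1 match was found in 21.8% of 27025 genes with a promoter in that table, in 29.7% of the 9702 matched among the genes tested here, and in 15 of the 23 glycolysis and hypoxia genes matched (65.2%). It was found in 6 of the 11 matched that were higher at P0.5 (54.5%) and in 9 of the 12 that did not pass (75%). A match is a description of the sequence and not a bound site. The list holds known targets of these factors, so its share may exceed that of all genes whatever the age. A relation of the matches to the change with age was not tested. Shown are the promoter of Pgk1 (chrX:106186850-106187149, plus strand) with 2 matches 150 and 131 bases before the start, the first of the promoters given for Ldha (chr7:46845554-46845853, plus strand) with 5, that of Bnip3 (chr7:138909457-138909756, minus strand) with an overlapping pair, and that of Gpi1 (chr7:34230287-34230586, minus strand), which passed the test without a match. Capitals mark the matches.
Pgk1: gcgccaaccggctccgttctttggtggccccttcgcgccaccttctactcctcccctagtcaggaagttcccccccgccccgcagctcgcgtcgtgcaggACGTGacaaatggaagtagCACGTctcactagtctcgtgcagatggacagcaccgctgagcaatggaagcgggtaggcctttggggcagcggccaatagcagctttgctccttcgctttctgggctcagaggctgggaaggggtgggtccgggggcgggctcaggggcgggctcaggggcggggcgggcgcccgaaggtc
Ldha: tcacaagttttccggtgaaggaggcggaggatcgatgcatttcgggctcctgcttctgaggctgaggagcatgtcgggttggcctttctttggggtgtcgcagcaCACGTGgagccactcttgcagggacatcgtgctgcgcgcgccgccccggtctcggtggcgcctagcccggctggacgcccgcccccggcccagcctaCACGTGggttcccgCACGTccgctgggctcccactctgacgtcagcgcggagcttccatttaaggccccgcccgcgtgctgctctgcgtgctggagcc
Bnip3: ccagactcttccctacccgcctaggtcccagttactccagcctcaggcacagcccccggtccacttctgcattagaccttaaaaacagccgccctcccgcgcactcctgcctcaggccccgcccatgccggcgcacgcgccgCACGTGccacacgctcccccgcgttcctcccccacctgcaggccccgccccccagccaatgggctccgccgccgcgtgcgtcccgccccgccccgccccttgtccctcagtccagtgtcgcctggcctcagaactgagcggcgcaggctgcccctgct
Gpi1: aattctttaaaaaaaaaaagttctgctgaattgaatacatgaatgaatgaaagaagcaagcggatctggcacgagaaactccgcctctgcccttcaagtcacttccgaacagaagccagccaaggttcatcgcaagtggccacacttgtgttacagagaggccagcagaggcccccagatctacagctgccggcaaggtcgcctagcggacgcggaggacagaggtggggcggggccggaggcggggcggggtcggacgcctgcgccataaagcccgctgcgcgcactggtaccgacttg

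Of 85 tested nuclear genes of oxidative phosphorylation, 5 were higher (5.88%, against 2.84% of all genes) and 1 lower, and 76 had a positive log2 fold change, with a median of 0.28. Their sum overlapped between the ages, at 10233 to 11106 CPM on the E16.5 plates and 10671 to 13617 CPM on the P0.5 plates, and on the VGAT+Pitx3+ plates 50 of the 85 had a positive log2 ratio, with a median of 0.06. Atp5g1, a gene of the membrane ring of ATP synthase, was at 63.5, 51.8, 67.7 and 68.3 CPM on the E16.5 plates and 101, 155 and 122 CPM on the P0.5 plates, without overlap, a log2 fold change of 1.01 (adjusted p = 0.00887). Sdhd, an anchor subunit of complex II, had a log2 fold change of 0.79 (adjusted p = 0.0137). Outside the list, Cox6b2, an isoform of a cytochrome c oxidase subunit, was at 3.98, 4.53, 2.30 and 4.20 CPM and 16.4, 15.9 and 11.0 CPM, a log2 fold change of 1.90 (adjusted p = 0.011). Between 1 and 13 genes of the oxidative phosphorylation list were higher in the fits that left out a plate.

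Among 28 tested antioxidant enzymes 4 were higher (14.3%, against 2.84% of all genes) and none lower, with a median of 0.32, while on the VGAT+Pitx3+ plates 14 of the 28 had a positive log2 ratio and the median was 0.04. Gpx3, a glutathione peroxidase that is secreted, was at 11.9, 15.3, 7.86 and 7.01 CPM and then 34.2, 44.2 and 40.6 CPM, a log2 fold change of 1.92 (SE 0.24, adjusted p = 0.00634). Gpx4, the peroxidase that repairs lipid peroxides in membranes, had a log2 fold change of 1.29 (adjusted p = 0.00634), Gstp1, a glutathione transferase, 1.07 (adjusted p = 0.00948), and Prdx1, a peroxiredoxin, 0.996 (adjusted p = 0.0253). The plates of the ages were fully apart for Gpx3, and Gpx4, Gstp1 and Prdx1 have near-identical copies, so that their levels are uncertain. Of 77 tested cytoplasmic ribosomal protein genes, which have many such copies, 5 (6.49%) were higher and none lower, while 68 had a positive log2 fold change and the median was 0.47. Leaving out 1 plate gave 0 to 12 of them higher, and the other settings gave 0 to 24. Ribosomal protein transcripts made up 0.521 to 0.597% of counts on the E16.5 plates and 0.656 to 0.881% on the P0.5 plates (exact permutation test over plates, two-sided p = 0.0571, the smallest that 4 plates against 3 allow).

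Genes of the immature neuron divided. Of 35 tested, 7 (20%, against 1.74% of all genes) were lower at P0.5 and 2 (5.71%, against 2.84%) higher. Leaving out 1 plate gave 1 to 9 lower and 0 to 3 higher, with 1 lower without E16.5 replicate 3 or without E16.5 replicate 4. Sox11 (ENSMUSG00000063632, chromosome 12, 27334264 to 27342574 of mm10, minus strand), a transcription factor that is switched on as progenitors become neurons, was at 1379, 1105, 1748 and 1647 CPM on the E16.5 plates and 706, 589 and 643 CPM on the P0.5 plates. Every P0.5 plate was far under every E16.5 plate, with a log2 fold change of -1.19 (SE 0.16, adjusted p = 0.00634). Elavl2, a neuronal RNA-binding protein, was at 549.9, 481, 676 and 669 CPM and 316, 415 and 347 CPM (log2 fold change -0.72, adjusted p = 0.0223), and Nfib, a nuclear factor of neural differentiation, was lower (log2 fold change -0.95, adjusted p = 0.0231). Neither passed in exonic counts alone, at adjusted p of 0.0528 for Elavl2 and 0.0578 for Nfib. Sox4, the partner of Sox11, Dcx, a microtubule protein of migrating neurons, Cd24a and Bcl11a were the other lower members, and the higher ones were Stmn1 and Tubb2a, a tubulin gene with near-identical family members (log2 fold change 0.68, adjusted p = 0.0256).

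Of 21 tested genes of the mature cytoskeleton, 2 were higher and 1 lower, together 14.3% against 4.58% of all genes. Sncb, beta-synuclein of the presynaptic terminal, was at 95.8, 124, 91.1 and 97.1 CPM and then 185, 269 and 228 CPM, with no overlap and a log2 fold change of 1.16 (adjusted p = 0.00634). Tubb4b, a beta-tubulin, had a log2 fold change of 0.70 (adjusted p = 0.0137), and Ina, the neurofilament subunit of young axons, -0.55 (adjusted p = 0.0477). Outside the lists, Tuba4a, an alpha-tubulin of mature neurons, was at 2.99, 5.10, 3.45 and 4.00 CPM at E16.5 and 10.9, 22.1 and 20.1 CPM at P0.5, a log2 fold change of 2.20 (adjusted p = 0.00634). It overlaps Stk16 on the other strand.

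**Figure D3:**
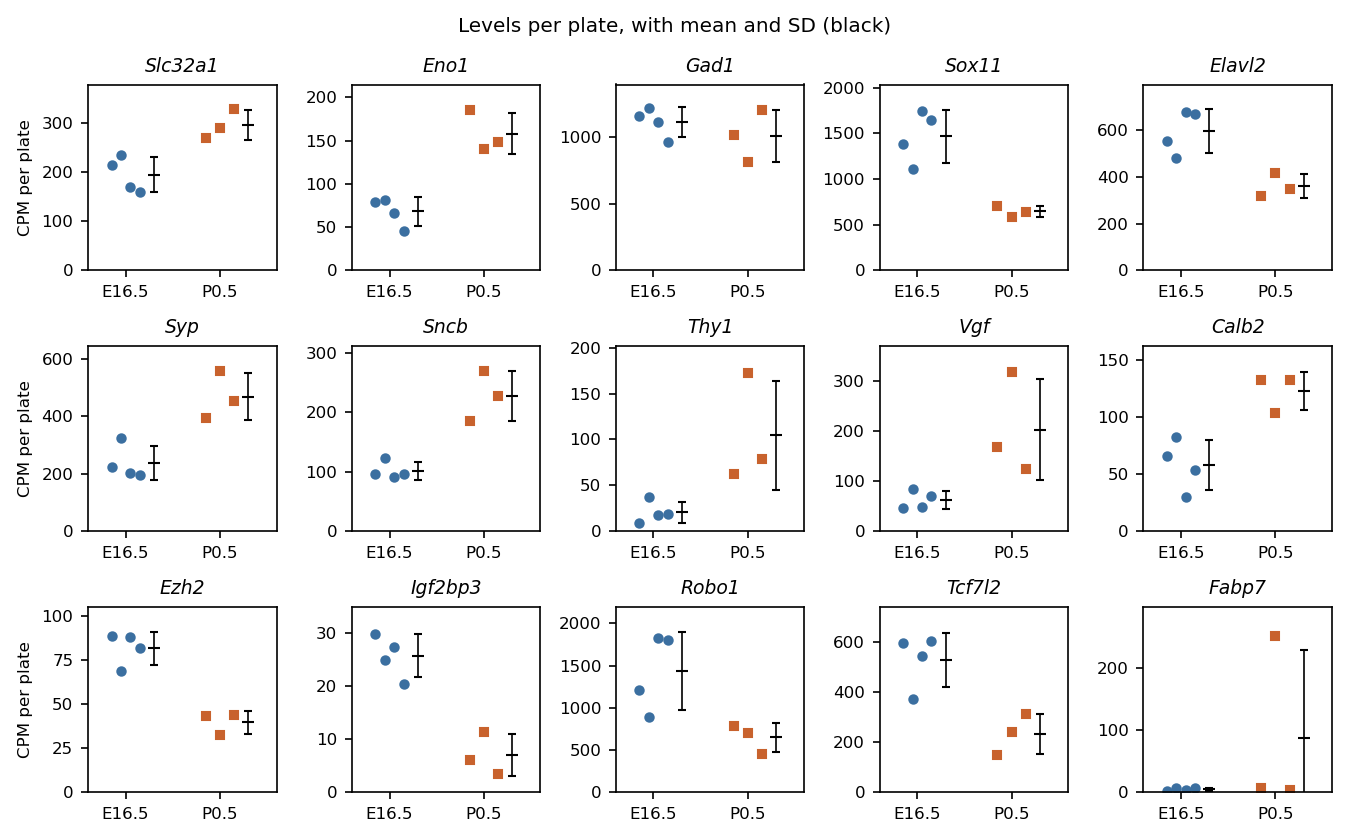
Expression of 15 genes on each plate in CPM (vertical axis, starting at 0), with 4 E16.5 plates in blue, 3 P0.5 plates in orange and the mean with its SD as a bar for each age. The plates of Sox11, Ezh2 and Igf2bp3 are lower at P0.5 and those of Sncb, Syp and Vgf higher, while for Fabp7 only P0.5 replicate 2 stands high at 251 CPM and the SD bar runs past the axis.

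Synaptic genes passed in both directions. Of 50 tested genes of vesicle release, 2 were higher and 2 lower, together 8% against 4.58% of all genes, and the median log2 fold change was 0.23. Fits of this list that left out 1 plate gave 0 to 9 higher and 0 to 2 lower. Syp, the vesicle membrane protein synaptophysin, was at 225, 323, 204 and 196 CPM and then 394, 558 and 455 CPM, a log2 fold change of 0.98 (adjusted p = 0.0139), and the plates of the ages did not overlap. Syngr1, another vesicle membrane protein, had a log2 fold change of 0.57 (adjusted p = 0.0294) and overlaps Rpl3 on the other strand. Rab3c, a vesicle GTPase, had a log2 fold change of -0.60 (adjusted p = 0.0367), and Syt4, a synaptotagmin that binds calcium weakly, -0.55 (adjusted p = 0.0465). Of 64 synapse organizers 3 were higher and 3 lower, together 9.38%. Of the higher ones Bcan lost the threshold without the cells with 3 or more glial genes (0.94, adjusted p = 0.245), and of the lower ones Nrxn3 (0.13, adjusted p = 0.597) and Mdga2 (-0.32, adjusted p = 0.131) did not pass in exonic counts. Without 1 plate, 0 to 6 were higher and 0 to 5 lower. Lgi3, a secreted protein of the axon, had a log2 fold change of 1.69 (adjusted p = 0.017) and Adgrl2, a latrophilin, -0.93 (adjusted p = 0.0218).

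Of 33 ionotropic glutamate receptor subunits and auxiliaries, 5 were higher (15.2%, against 2.84% of all genes) and none lower, with a median of 0.02. Other settings gave 0 to 7 higher and 0 to 4 lower, and leaving out 1 plate 0 to 5 higher and 0 to 1 lower, with 0 higher without P0.5 replicate 3. Grin1, the obligatory subunit of NMDA receptors, had a log2 fold change of 0.65 (adjusted p = 0.0361). The others were auxiliaries, of which Shisa6, which holds AMPA receptors open, was at 44.0, 48.2, 55.6 and 55.9 CPM and then 118, 73.7 and 145 CPM (log2 fold change 1.15, adjusted p = 0.011). Cacng5 (log2 fold change 1.75, adjusted p = 0.0325), Shisa9 (log2 fold change 0.72, adjusted p = 0.0367) and Neto1 followed. Of 49 potassium channel genes 2 passed (4.08%, near the 4.58% of all genes), both higher. Kcnc4, a voltage-gated channel subunit, had a log2 fold change of 0.89 (adjusted p = 0.0227) and Kcna6 a log2 fold change of 0.61 (adjusted p = 0.0352). Of 35 sodium, calcium and HCN channel genes none passed by edgeR, 9 did at an unadjusted p under 0.05 and 2 by DESeq2, 1 higher and 1 lower.

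Calcium buffers and sensors were positive in 18 of 19 tested genes, where 51.7% of all genes were, with a median of 0.46 and 4 genes (21.1%, against 2.84% of all genes) past the threshold, all higher. Calb2, the buffer calretinin, was at 65.9, 82.9, 30.5 and 53.7 CPM and then 133, 104 and 133 CPM (log2 fold change 1.08, adjusted p = 0.0347). Hpca, hippocalcin, had a log2 fold change of 0.84 (adjusted p = 0.0357), Ncald, neurocalcin, 0.55 (adjusted p = 0.0352) and Vsnl1, visinin-like protein, 0.52 (adjusted p = 0.0475). Without 1 plate, between 0 and 8 genes of this list passed. Of 22 neuropeptide and processing genes 4 (18.2%) were higher and none lower, with a median of 0.39. Leaving out 1 plate gave 1 to 8 higher, and the other settings gave 0 to 9 higher and 0 to 1 lower. Vgf, a granin-like precursor that is made under trophic and electrical stimulation, was at 47.3, 85.6, 48.3 and 71.1 CPM at E16.5 and 168, 318 and 124 CPM at P0.5 without overlap (log2 fold change 1.67, SE 0.28, adjusted p = 0.0126). Scg2, secretogranin II of the same granules, had a log2 fold change of 0.75 (adjusted p = 0.0207) and Pcsk2, a convertase that cuts precursors, 0.52 (adjusted p = 0.0375).

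Of 27 tested genes of semaphorin signalling 2 were higher and 2 lower, together 14.8% against 4.58% of all genes. Of 19 tested netrin, Slit, Robo and Dcc genes 3 (15.8%, against 1.74% of all genes) were lower and none higher, and the median was -0.14. Leaving out 1 plate gave 0 to 6 lower and medians from -0.42 to -0.06, and the other settings gave 0 to 9 lower. Robo1, a Slit receptor, was at 1208, 897, 1824 and 1806 CPM and then 788, 707 and 455 CPM, with no overlap and a log2 fold change of -1.15 (adjusted p = 0.0287). Robo2, a second Slit receptor, had a log2 fold change of -0.66 (adjusted p = 0.0361), and Dscaml1, a homophilic adhesion molecule, -0.61 (adjusted p = 0.0176). Cdh2, N-cadherin, was the only 1 of 31 migration genes to pass (3.23%), and its log2 fold change was -0.62 (adjusted p = 0.036). Of 22 matrix genes 3 were higher and 2 lower, together 22.7%. The higher ones include Bcan and Sparcl1, which glial cells also make, and without the cells with 3 or more glial genes Bcan lost the threshold (0.94, adjusted p = 0.245) and Sparcl1 was at 0.74 in place of 1.40. Gpc6, a glypican, was at 466, 550.1, 606 and 572 CPM and then 237, 339 and 245 CPM (log2 fold change -1.003, adjusted p = 0.00887), and its ages were fully apart. Sdc3, the neuronal syndecan, went the other way, at a log2 fold change of 0.60 (adjusted p = 0.0357).

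The counts hold both exonic and intronic reads, and the latter come largely from RNA that is not yet spliced. Intronic reads made up 24.2 to 30.0% of counts on the E16.5 plates and 20.1 to 25.9% on the P0.5 plates (exact permutation test over plates, two-sided p = 0.114). Their part in each total difference could be read from exonic counts alone. Of the 387 genes higher at P0.5, 371 could be tested in exonic counts, 279 of them passed (75.2%) and all 371 kept their sign. Of the 237 lower, 228 could be tested, 129 passed (56.6%) and 226 kept their sign.

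Several adhesion and guidance genes had lower intronic but not lower exonic levels, which are given here as CPM of all counts on the plate, without the TMM scaling of the other levels. Nrxn3, a presynaptic adhesion molecule, went from a mean of 4103 ± 361 (SD, n = 4) to 2772 ± 234 (SD, n = 3) intronic CPM, while its exonic level was 309 ± 16.2 and 356 ± 78.5. Its exonic log2 fold change was 0.13, against -0.52 for the total. Cdh2 went from a mean of 196 to 119 intronic CPM and from 27.6 to 30.5 exonic CPM, with an exonic log2 fold change of 0.05. Sema6d, a transmembrane semaphorin, had 689 and then 406 intronic and 74.1 and then 75.8 exonic CPM, an exonic log2 fold change of -0.04. Robo1, by contrast, was lower in both parts, from 1281 to 581 intronic and from 126 to 70.5 exonic CPM, and passed in exonic counts alone (-0.94, adjusted p = 0.0423). Robo2 (-0.46, adjusted p = 0.121) and Dscaml1 (-0.28, adjusted p = 0.348), the other genes of the netrin, Slit, Robo and Dcc list that were lower in total counts, did not pass in exonic ones. Gpc6 passed in exonic counts (-0.73, adjusted p = 0.0456). Gabbr2 showed the reverse split, with intronic levels of 66.8 and 67.9 and exonic levels of 72.3 and 137 CPM (exonic log2 fold change 0.85, adjusted p = 0.00658).

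**Figure D4:**
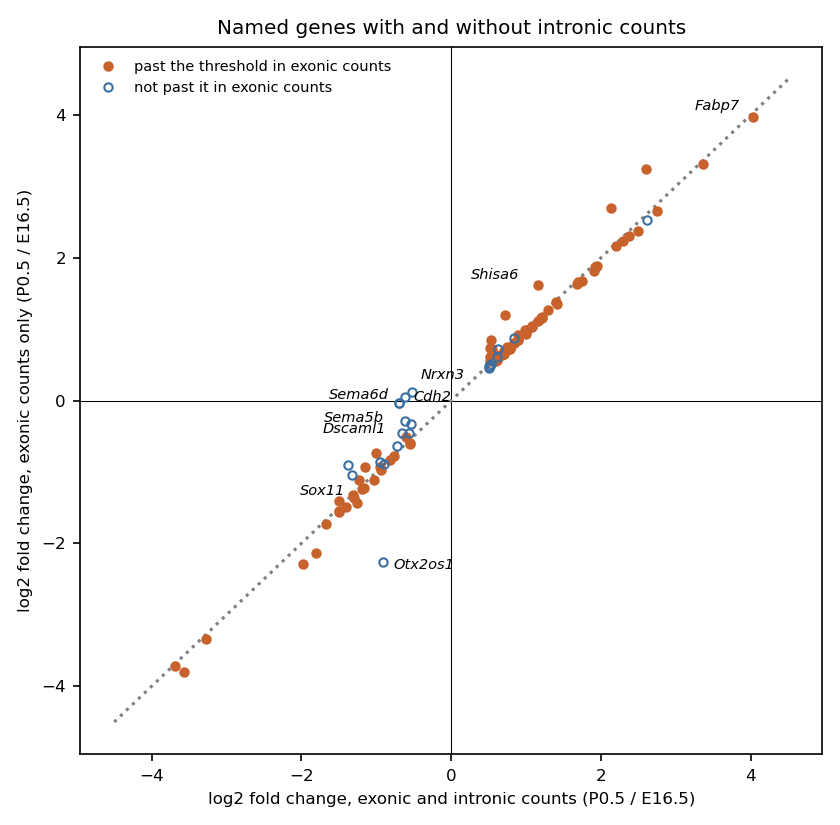
Log2 fold change from E16.5 to P0.5 of the named genes that passed, from total counts (horizontal axis) and from exonic counts alone (vertical axis), with filled orange points where the exonic test also passed and open blue points where it did not. Points lie near the diagonal for higher genes, while Nrxn3, Cdh2, Sema6d and Sema5b sit at or near 0 on the vertical axis.

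In the lists of growth control and of chromatin the members that passed were all lower, and over all genes 1.74% were. Igf2bp3 and Igf2bp2 encode RNA-binding proteins that hold fetal growth transcripts. Igf2bp3 (ENSMUSG00000029814, chromosome 6, 49085223 to 49214957 of mm10, minus strand) was at 29.9, 24.9, 27.4 and 20.4 CPM on the E16.5 plates and 6.16, 11.3 and 3.55 CPM on the P0.5 plates, a log2 fold change of -1.98 (SE 0.31, adjusted p = 0.0107). Igf2bp2 was at 37.3, 25.3, 31.4 and 31.0 CPM and 18.5, 8.51 and 8.29 CPM (log2 fold change -1.498, adjusted p = 0.0137). Both were without overlap between ages and were lost only without P0.5 replicate 3, at adjusted p of 0.0528 and 0.075. They were the only 2 of 23 tested imprinted and growth genes to pass (8.70%), the list had a median of -0.10, and Igf2bp3 overlaps Malsu1 on the other strand. Ezh2 (ENSMUSG00000029687, chromosome 6, 47530139 to 47595341 of mm10, minus strand), the methyltransferase of Polycomb complex 2, was at 88.6, 68.6, 88.4 and 81.7 CPM and then 43.1, 32.3 and 43.8 CPM (log2 fold change -1.03, adjusted p = 0.00822). Chd7, a chromatin remodeller, was at 116, 97.3, 162 and 145 CPM and then 66.4, 65.8 and 68.4 CPM (log2 fold change -0.96, adjusted p = 0.0137), and these 2 of 27 tested chromatin genes passed (7.41%), in a list with a median of 0.02. Of these 4 genes Ezh2 alone passed without each plate in turn.

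Of 13 tested proliferation genes none passed by edgeR, 0 did at an unadjusted p under 0.05 and 0 by DESeq2. In the next lists 1 or 2 members passed, and over all genes 4.58% did. Of 21 neuronal splicing factors, Mbnl2, which promotes adult splice forms, was higher at a log2 fold change of 0.62 (adjusted p = 0.0357) and Khdrbs3 lower at a log2 fold change of -0.57 (adjusted p = 0.035). Of 18 clock genes, Cry2, a repressor of the clock, was higher at a log2 fold change of 0.84 (adjusted p = 0.0205) and Nfil3, a repressor of the output genes, lower at a log2 fold change of -0.82 (adjusted p = 0.0411). Jun was the only 1 of 16 immediate early genes to pass, and its log2 fold change was 1.21 (adjusted p = 0.0397), with Junos on the other strand.

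Among the largest increases, Thy1, a surface glycoprotein of mature axons, was at 9.46, 37.0, 18.2 and 19.2 CPM at E16.5 and 62.3, 172 and 78.5 CPM at P0.5, a log2 fold change of 2.29 (SE 0.38, adjusted p = 0.0113). Nrgn, neurogranin, which binds calmodulin in dendrites, was at 4.23, 16.2, 4.22 and 4.20 CPM and 19.2, 36.3 and 28.7 CPM (log2 fold change 1.94, adjusted p = 0.0314). Both were apart between ages, although P0.5 replicates differed among themselves by more than the gap between the ages. Ebf2, a transcription factor, was at 12.4, 17.4, 1.92 and 0.801 CPM and 45.9, 18.2 and 68.4 CPM (log2 fold change 2.495, adjusted p = 0.0444), and Prdm8, a repressor in neurons, at 4.48, 3.02, 1.73 and 2.80 CPM and 29.4, 4.54 and 13.9 CPM (log2 fold change 2.38, adjusted p = 0.0227). Both were lost without several plates, Ebf2 without 6 of the 7 and Prdm8 without 4.

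Among the largest decreases, Prox1, a homeobox factor that takes part in cell cycle exit, was at 87.6, 79.9, 91.1 and 155 CPM and 32.9, 56.7 and 36.1 CPM (log2 fold change -1.31, adjusted p = 0.0178). Npas3, a factor of the bHLH-PAS family, was at 1238, 961, 1986 and 1597 CPM and 386, 768 and 510.1 CPM (log2 fold change -1.38, adjusted p = 0.0158), but missed the threshold in exonic counts alone (-0.90, adjusted p = 0.066). Outside transcription, Serinc2 was at 23.6, 15.7, 24.9 and 20.2 CPM and 7.53, 5.11 and 8.89 CPM (log2 fold change -1.501, adjusted p = 0.0137) and Islr2, an axon guidance membrane protein, at 29.1, 32.7, 35.7 and 23.0 CPM and 13.7, 12.5 and 9.18 CPM (log2 fold change -1.41, adjusted p = 0.0107). Thsd7a, a membrane protein with thrombospondin repeats, was at 171, 134, 225 and 246 CPM and 69.1, 103 and 76.1 CPM (log2 fold change -1.23, adjusted p = 0.0129). In midbrain selector cells, defined in the next paragraph, Islr2 was at -0.78 (adjusted p = 0.0802) and Prox1 at -1.38 (adjusted p = 0.074), so that both lost the threshold. Islr2 overlaps Islr and Prox1 overlaps Prox1os, and Prox1, Npas3, Islr2 and Thsd7a were lost without P0.5 replicate 3.

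The marker sum of Dlx-expressing neurons of hypothalamic type was 117 to 436 CPM on the E16.5 plates and 18.4 to 111 CPM on the P0.5 plates. The sum for the Pax5 type of the substantia nigra pars reticulata overlapped between the ages, at 266 to 1098 and then 198 to 450 CPM, and that for the Six3 type did not, at 1630 to 2334 and then 1326 to 1563 CPM. The part of these sums in the results for single genes was not tested. Among cells with a count of Gata2, Gata3, Tal1 or Sox14 and none of Dlx1, Dlx2, Dlx5 or Dlx6, 602 of the 624 genes could be tested, all 602 kept their sign and 495 passed. Genes named here that no longer passed included Bnip3 (adjusted p = 0.0585) and Slc2a3 (adjusted p = 0.0601) of the glycolysis list, Abat, Shisa9, Pcsk2, Dscaml1, Ebf2 and Mbnl2, the last at a log2 fold change of 0.34. The named genes were also read in subsets of the cells, which overlap widely: 157, 31, 61, 168 and 69 of the 190 cells of E16.5 replicate 1 had a count of Six3, Pax5, Otx2, Gata3 and Nkx2-2. The named genes were called on sums that hold these cells, so a kept sign is a description and not independent support. In cells with a count of Six3, Pax5, Otx2, Gata3 or Nkx2-2, the direction of the plate sums was kept by 101, 98, 99, 102 and 102 of the 102 named genes, by 94 in all 5, and 31 were without overlap between ages in all 5.

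Single genes illustrate the range. Sox11 went from 1423 ± 286 (SD, n = 4) to 633 ± 111 CPM (SD, n = 3) in Six3 cells and from 1568 ± 383 to 526 ± 8.34 CPM in Pax5 cells. Eno1 went from 67.5 ± 17.4 to 164 ± 18.9 CPM in Six3 cells, a log2 ratio of 1.27, and its smallest log2 ratio was 0.92, in Nkx2-2 cells. Tcf7l2, a factor of the Wnt pathway that is itself used in several of these types, overlapped between ages in Six3, Otx2 and Nkx2-2 cells. Vgf and Thy1 overlapped in Pax5 cells only among the 5 kinds.

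Glial RNA was uneven. Cells in which 3 or more of 9 glial genes were detected numbered 1, 4, 0 and 1 on the E16.5 plates and 3, 21 and 1 on the P0.5 plates. Fabp7, a lipid-binding protein of radial glia, was at 2.74, 6.42, 3.83 and 7.41 CPM and 7.53, 251 and 4.44 CPM, so that its log2 fold change of 4.03 (adjusted p = 0.0403) rested on P0.5 replicate 2. Without those cells it was 1.45 (adjusted p = 0.129), and without that plate the adjusted p was 0.934. Bcan, brevican of perineuronal nets and of oligodendrocyte precursors, went from 2.62 to 0.94 (adjusted p = 0.245) without the cells. Sparcl1, hevin, which astrocytes secrete, went from 1.40 to 0.74 and still passed (adjusted p = 0.024), and Aldoc from 1.41 to 1.30 (adjusted p = 0.0199). Slc1a2, the main glial glutamate transporter, was lower at P0.5 (log2 fold change -0.76, adjusted p = 0.0219).

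The share of cells in which a gene was seen gives the same comparison cell by cell, after each cell was thinned to 4000 counts so that depth was equal, which left out 24 of 1026 cells at E16.5 and 28 of 434 at P0.5. Slc32a1 was seen in 56.8, 54.4, 39.9 and 42.3% of cells on the E16.5 plates and 58.1, 67.0 and 65.1% on the P0.5 plates. No E16.5 plate reached a P0.5 plate, but without thinning, where depth differs, the means were 86.2 ± 6.06% and 86.1 ± 11.0% and the difference turned. Sox11 was seen in 96.7, 94.3, 95.3 and 94.9% of E16.5 cells and still in 86.0, 75.3 and 81.1% of P0.5 cells, and without thinning the means were 99.5 ± 0.411% and 94.2 ± 4.72%.

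Shares are given for 5 further genes, chosen with their values known, and other genes that passed, among them Shisa6, Hpca and Sdhd, overlapped between the ages in this share. Eno1 went from 24.6, 20.6, 18.1 and 14.3% to 53.5, 39.7 and 38.5% (unthinned 55.7 ± 12.4% and 75.9 ± 18.4%), Syp from 47.5, 69.3, 45.0 and 51.5% to 74.4, 84.5 and 76.3% (unthinned 87.8 ± 5.398% and 94.99 ± 3.30%), and Vgf from 12.6, 21.5, 13.4 and 20.8% to 34.9, 66.5 and 24.9% (unthinned 44.6 ± 9.38% and 71.5 ± 14.4%). For these 3 genes each P0.5 plate lay above each E16.5 plate. Ezh2 went from 28.4, 21.5, 26.8 and 27.3% to 13.95, 9.28 and 18.9% (unthinned 66.5 ± 4.10% and 42.3 ± 21.7%), and Igf2bp3 from 9.29, 11.0, 9.06 and 7.85% to 4.65, 3.09 and 1.78% (unthinned 27.3 ± 5.96% and 10.0 ± 5.13%). Fabp7 was seen in 32 of 194 cells on P0.5 replicate 2 and in 2.19% or less on every other plate.

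**Figure D5:**
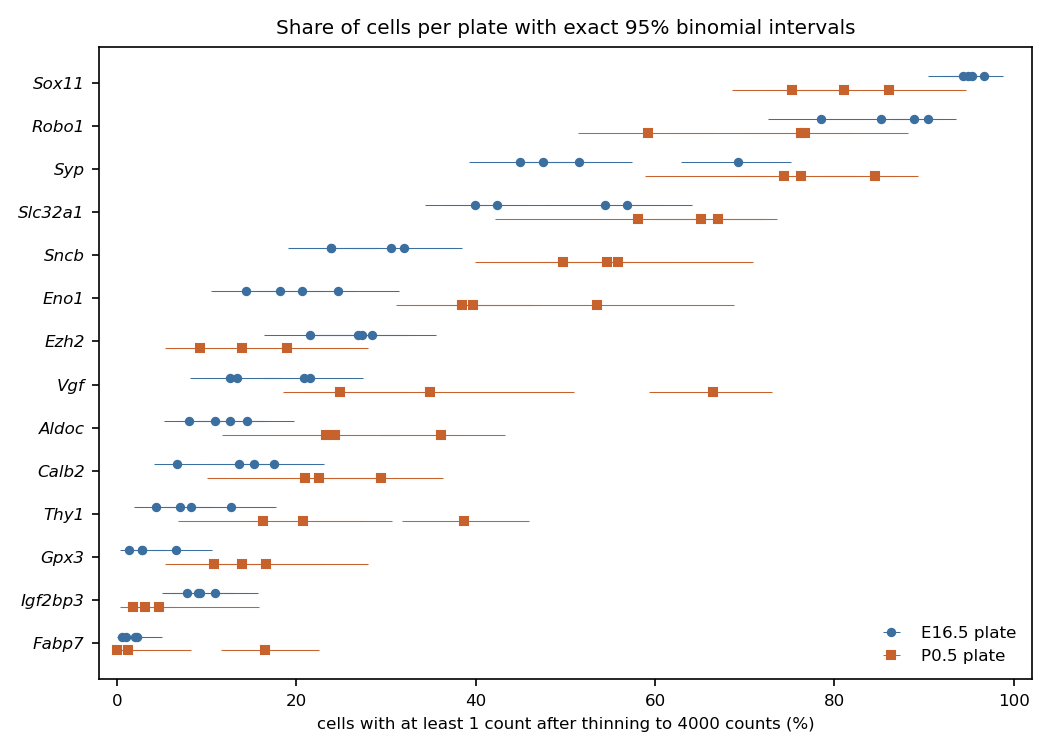
Share of cells with at least 1 count (horizontal axis, percent) for 14 genes on each plate after thinning to 4000 counts a cell, with exact 95% binomial intervals that cover counting error only, E16.5 in blue and P0.5 in orange. Eno1, Sncb and Syp are seen in more cells on every P0.5 plate, and Sox11 and Igf2bp3 in fewer.

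The VGAT+Pitx3+ plates, 1 at each age with 304 and 271 cells, gave a separate reading of the same interval in cells that carry both reporters. Of the genes that passed in VGAT+ plates, 613 had at least 10 counts there, and 527 (86.0%) had the same sign, against 8087 of 13340 genes (60.6%) overall. The median log2 ratio of the genes higher in VGAT+ cells was 0.49 there and 0.86 in the VGAT+ plates, and that of the lower genes -0.34 and -0.69. With 1 plate for each age no test was made, and the median over all genes was -0.07.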

How the data were processed

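Ventral midbrain cells were sorted into 384-well plates and sequenced by CEL-seq2, which reads the 3′ ends of transcripts. The authors aligned reads to mm10 with Ensembl 93 annotation, using STAR 2.5.3a, and deposited 1 table of total transcripts (exonic plus intronic) and separate tables of each. Values are the authors' expected counts after a correction for repeated molecular identifiers: 51.4% of the non-zero values are not whole, and 100% of them lie within 0.001 of the correction for 6-base identifiers that the labels name. The methods name 4 bases. Whether counting used strand is not given in the sources used here. The plates use the same 384 well barcodes, and the P0.5 plate of VGAT+Pitx3+ cells has values for 383 wells.

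From 2688 wells of VGAT+ plates, 1188 were left out for few genes, 36 for high counts and 4 for mitochondrial counts. The 32787 entries held 92 ERCC spike-ins, left out, and 34 mitochondrial genes. The expected counts as deposited were summed per plate, rounded to whole numbers and tested in edgeR 4.0.16 (R 4.3.3) by the quasi-likelihood F test with TMM scaling, filterByExpr and Benjamini-Hochberg adjustment. CPM are counts scaled to the TMM-adjusted library size, except exonic and intronic CPM, which are scaled to the total counts of the plate without the TMM factor. Shares were computed with numpy 2.4.6 and pandas 2.3.3 under Python 3.11.15, exact tests with scipy 1.17.1 and figures with matplotlib 3.10.9. Gene positions came from GENCODE M21, and intervals are exact (Clopper-Pearson) at 95%. Intervals cover counting error only. On simulated counts at these depths, 59 of 88 genes changed 2-fold (67.0%) and 103 of 112 changed 4-fold (92.0%) were recovered. Beside these, 16 unchanged genes of the 13639 simulated were called. The simulation drew each gene on its own, without an effect shared by the genes of a plate. No columns of per-sample values were left unmapped.

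Genes named were, for each list, up to 4 past the threshold by smallest adjusted p, or the 1 with the smallest p where none passed, and the 12 largest changes in each direction among genes whose plates do not overlap and whose mean reaches 10 CPM, without Gm, Rik and numbered clone names. The hypoxia and glycolysis members and a few others named outside that rule were chosen after their values were seen, and the sort genes and markers of other cell types as counts and ranges. Results of a few genes are not reported here. Members and lists were chosen with earlier results of these data known. Alternatives were DESeq2 1.42.0, other scalings and filters, exonic counts, other cell filters, thinned or equal cell numbers, a replicate block, and each plate left out.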

Additional observations from a re-analysis of the deposited data

Results flagged for a closer look

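In the E16.5 group of 4 plates, 11 of 182 values had 1 plate set apart from the other 3, where chance sets apart about 1 in 20. E16.5 replicate 2 stood apart for Slc12a5, at 303.4 CPM against 224 to 236 on the others, Nrxn3, at 3884 CPM against 4641 to 4708, Chrna5, at 3.02 CPM against 1.00 to 1.24, Aldoc, at 72.0 CPM against 34.1 to 37.6, and Nrgn, at 16.2 CPM against 4.20 to 4.23. On the same plate the summed serotonergic markers were at 3.78 CPM against 1.15 to 1.40 and the microglial ones at 60.6 CPM against 2.60 to 6.52. E16.5 replicate 4 stood apart for Otx1, at 105.3 CPM against 60.0 to 62.9, Prox1, at 155.4 CPM against 79.9 to 91.1, the summed clock genes, at 778 CPM against 563 to 596, and the summed markers of the Nkx2-2 type, at 528 CPM against 295 to 300.3.

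Of 101 named genes that passed in VGAT+ cells and were compared, 12 had the opposite sign on the VGAT+Pitx3+ plates, with 1 plate at each age, and these differences were not tested. Genes lower at P0.5 in VGAT+ cells had log2 ratios there of 0.062 (Syt4), 0.0091 (Adgrl2), 0.36 (Mdga2), 0.22 (Gabrb2), 0.14 (Dscaml1), 0.31 (Robo1), 0.16 (Cdh2), 0.090 (Otx2os1) and 0.076 (Tcf7l2, on 50 counts). Genes higher in VGAT+ cells had log2 ratios there of -0.18 (Ebf2), -0.22 (Prdm8) and -0.17 (Nrgn).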

How the results depend on the processing

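The number of genes past the threshold, 624, was within 1.5 times under RLE scaling, total-count scaling, a filter at 10 CPM, exonic counts, a looser or stricter gene minimum per cell, midbrain selector cells, and without doublet-like or glial cells. It was 944 with DESeq2, 1588 without a filter on low counts, 267 with cells under 5% mitochondrial counts, 375 with plate sums thinned to one depth, 359 with cells thinned to 4000 counts and 16 with equal cells per plate (44). Leaving out 1 plate gave 76 to 833. Total-count scaling put 69.1% of called genes on the higher side and no filter 44.7%, against 62.0%. With the replicate number as a block, over 6 plates, 219 genes passed, and 130 without the block over the same plates, a fit added after seeing the data. Same-numbered plates deviated together at correlations of 0.03 in each of 3 pairs, so the numbers do not pair them. The direction was reversed for Nrxn3 (0.13) and Cdh2 (0.047) in exonic counts, and for the share of cells with Slc32a1 without thinning (-0.10 percentage points). The causes were not tested. With equal cells per plate, 537 of the 624 genes could be tested and 14 of them passed. Of 2376 refits of the 102 named genes, 1609 stayed past the threshold, 765 kept the sign but did not pass, and 2 were reversed and did not pass. Depth limits genes near 3 counts a plate, and P0.5 replicate 1 has 44 cells.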

Other observations

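The following 5 groups, chosen with their counts known, each had 0 or 1 member past the threshold. Over all genes tested 4.58% passed, and in groups this small nothing is read from a count of 0 or 1. Of 11 tested genes of retinoic acid handling 1 was higher at P0.5, Cyp26b1, which breaks retinoic acid down, and the median log2 fold change was 0.34. None of 10 tested thyroid and glucocorticoid genes passed by edgeR, 4 did at an unadjusted p under 0.05 and 1 by DESeq2, and the nearest was Zbtb16 (log2 fold change -0.99, adjusted p = 0.0745). None of 17 ephrins and Eph receptors passed by edgeR, 7 did at an unadjusted p under 0.05 and 1 by DESeq2, while 13 of the 17 had a negative log2 fold change and the median was -0.19, and the nearest was Epha3 (log2 fold change -0.60, adjusted p = 0.0756). Among 24 tested receptors for monoamines, acetylcholine and adenosine only Chrna5, a nicotinic subunit, passed (log2 fold change 2.04, adjusted p = 0.0444), from levels near 1 CPM. None of 20 neuropeptide receptors passed by edgeR, 6 did at an unadjusted p under 0.05 and 1 by DESeq2, and the nearest was Oxtr, the oxytocin receptor (log2 fold change 1.59, adjusted p = 0.0781).

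The list of selector genes that fix the GABAergic fate in the midbrain also held Zfpm, Ldb and Lmo cofactors, and 11 of its genes were tested. None passed by edgeR, 3 did at an unadjusted p under 0.05 and 2, both lower, by DESeq2, and the median was -0.24. Ldb2, a cofactor of LIM proteins that overlaps Gm3364, came nearest (log2 fold change -0.53, adjusted p = 0.0559). None of 23 genes of cholesterol synthesis passed by edgeR, 2 did at an unadjusted p under 0.05 and 0 by DESeq2, with Sqle nearest (log2 fold change -0.42, adjusted p = 0.11).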
